A study of Mus musculus with 6 samples.

Results

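The genes described here are 10 parts of the machinery that makes microRNAs and silences mRNAs with them, Drosha, Dgcr8, Xpo5, Dicer1, Tarbp2, Ago1, Ago2, Ago3, Ago4 and Tnrc6a. They were chosen by name and matched through their Ensembl identifiers to 10 of the 46078 genes counted in each library. The libraries are RNA sequencing of adenomas from the small intestine of mice 18 weeks old and of mixed C57BL6/SV129 strain. All mice carried ApcMin/+, a heterozygous truncation of Apc, which restrains Wnt signalling, and such mice develop many intestinal polyps. The knockout group (miR-34a/b/c-/-;ApcMin/+) lacked the microRNAs miR-34a, miR-34b and miR-34c, and the wild-type group (miR-34a/b/c+/+;ApcMin/+) kept them. Each group has 3 libraries, and each library is a pool of 3 tumors from 1 mouse, so the mouse is the replicate and differences between tumors of a mouse are not seen.

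MicroRNAs are cut in steps. In the nucleus Drosha, an RNase III enzyme, and its RNA-binding partner Dgcr8 release a hairpin from a long primary transcript, and exportin 5 (Xpo5) carries that hairpin to the cytoplasm. There the RNase III enzyme Dicer1, with its partner Tarbp2, cuts the hairpin to a short duplex, and 1 strand is loaded into an Argonaute protein (Ago1 to Ago4). The loaded Argonaute binds target mRNAs through the seed, bases 2 to 8 of the microRNA, and recruits Tnrc6 scaffold proteins that call in deadenylation and decapping enzymes. Most microRNAs are made by this route, though some are known to bypass Drosha, Xpo5 or Dicer1.

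The microRNAs missing from the knockout mice are shown first because their seed is used below to read the 3′ UTRs of the machinery genes. RefSeq (GRCm38.p6) gave the mature 5p strands of miR-34a and miR-34b, while that of miR-34c is named only. Capitals mark the seed, which is the same in both.

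miR-34a-5p (chr4:150068473-150068494, + strand): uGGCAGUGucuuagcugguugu

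miR-34b-5p (chr9:51103610-51103632, - strand): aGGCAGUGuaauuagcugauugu

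Library totals ranged from 26375035 to 38354355 counts, and the 10 genes had between 147 and 6748 counts in a library. Mir34a, Mir34b and Mir34c had 0 counts in all 6 libraries, wild-type included, so the deleted genes do not check the genotype labels. Markers of intestinal epithelium were present in every library (11 of 11 tested, with at least 1617 counts each), with a summed level of 13479.9 to 17859 CPM in knockout and 15927 to 20219 CPM in wild-type tumors. CPM are library-scaled counts after TMM scaling between libraries. The 10 adenoma Wnt targets summed to 805 to 2273 CPM in knockout and 1227 to 1830 CPM in wild-type tumors. Other cells were present too: leukocyte markers (13 of 14 tested) summed to 557 to 1395 CPM in knockout and 2002 to 2565 CPM in wild-type tumors. Between 89.5% and 96.5% of that sum came from 4 genes, the plasma cell gene Jchain and the MHC class II genes Cd74, H2-Aa and H2-Ab1. Of the 13 markers 11 were lower in mean in knockout tumors. The 2 higher were the macrophage genes Csf1r and Adgre1 (log2 fold change 0.44 and 0.67). Outside the 4 genes, the lower markers were Cd3e (-0.90), Cd3g (-0.73), Trac (-0.98), Cd79a (-0.79), Ms4a1 (-0.48), Itgam (-0.60) and the pan-leukocyte gene Ptprc (-0.05). Groups lay apart for 6 lower markers and 1 higher one, against 11.2% of all genes. With edgeR 0 of the 13 passed, against 0.0927% of all genes, while DESeq2 called 2, both lower, against 0.638% of all genes. The markers did not all move alike, so the sum does not stand for leukocytes as a class. Also summed were endothelial markers (6 of 6) at 269.6 to 379.7 against 171 to 223 CPM, smooth muscle markers (6 of 6) at 524 to 628 against 203 to 471 CPM and fibroblast markers (8 of 8) at 747 to 2777 against 449 to 1327 CPM. In such bulk samples fewer cells of a type and less RNA per cell cannot be told apart. The first principal component (40.8% of the variance) placed knockout replicates 1 and 3 (scores -53.0 and -49.2) away from knockout replicate 2 (27.1), which lay among the wild-type libraries (-0.28, 58.5 and 16.9).

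The question of the comparison was whether tumors without miR-34 differ in the transcripts of the microRNA machinery. All 10 genes were expressed in all 6 libraries and passed the filter on low counts, and none passed the test. With edgeR's quasi-likelihood test, 0 of 10 differed at an adjusted p below 0.05, where 0.0927% of the 17254 genes tested did. At an unadjusted p below 0.05 the count was 1 of 10, Xpo5, against 5.85% of all genes. DESeq2 called 0 of the 10 and 0.638% of all genes, limma-voom also called 0 of the 10, and each gave Xpo5 alone an unadjusted p below 0.05. Knockout and wild-type ranges lay apart for 1 of 10 genes, again Xpo5, against 11.2% of all genes. In mean, 7 of the 10 were higher in knockout tumors, against 51.1% of all genes, but this count was not stable. It was 9 with library size alone as the scale or without knockout replicate 1. It was 8 with limma-voom, with the replicate number as a block, or without wild-type replicate 1 or 2. Without knockout replicate 3 or wild-type replicate 3 it was 6. The median log2 fold change (knockout over wild-type) was 0.14 for the 10 genes and 0.01 for all genes tested. The 95% intervals of the 10 genes, unadjusted for their number, together ran from -0.63 to 0.81 on the log2 scale, so a doubling or halving lay outside each of them.

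**Figure D1:**
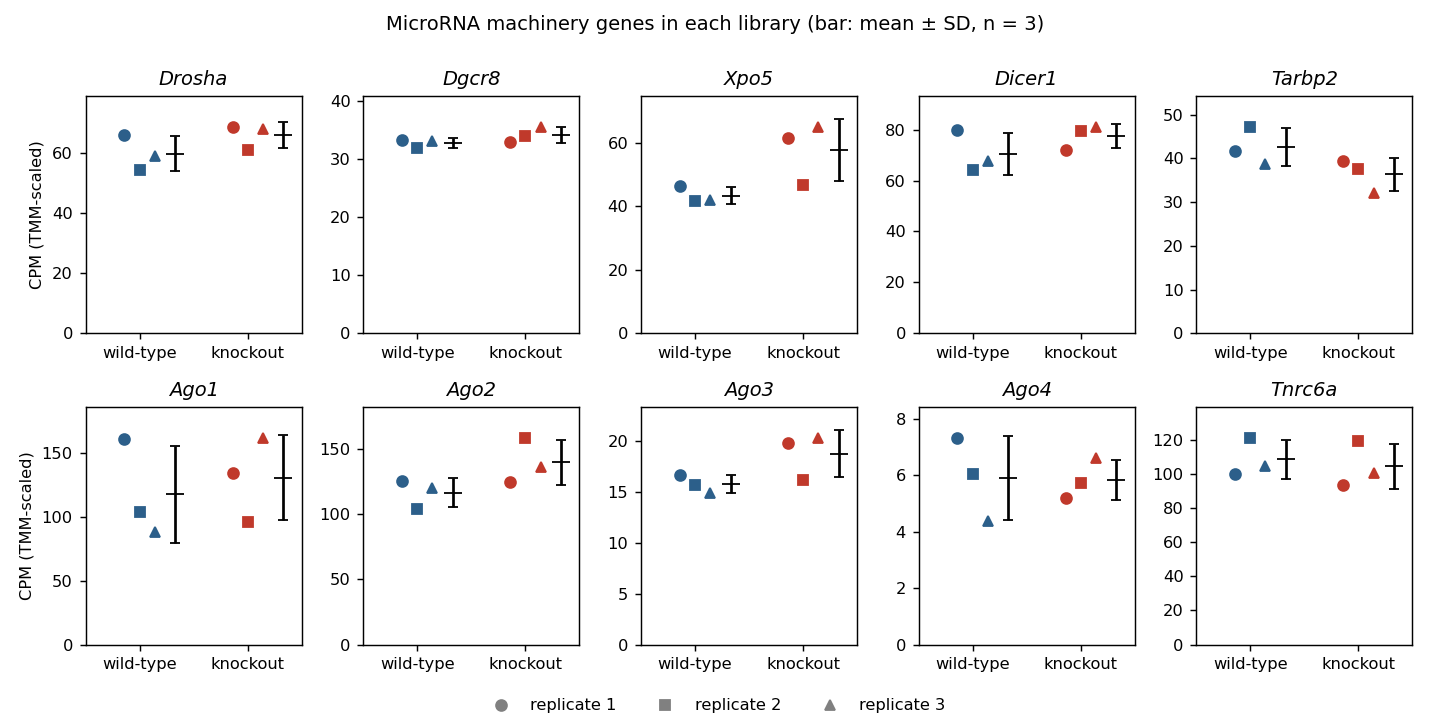
Level of each of the 10 genes in every library, in TMM-scaled CPM on axes that start at 0; blue points are wild-type and red points knockout libraries, the symbol gives the replicate number, and the bar gives mean ± SD (n = 3). Xpo5 is the gene whose groups do not overlap, by a narrow gap between knockout replicate 2 (46.6) and wild-type replicate 1 (46.3), and Ago1 has the widest scatter within both groups.

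Nuclear processing comes first in the route. Drosha (ENSMUSG00000022191, mm10 chromosome 15, 12824815 to 12935290), the nuclear RNase III, had 68.9, 61.0 and 68.2 CPM in knockout replicates 1 to 3 and 66.2, 54.4 and 59.2 CPM in wild-type replicates 1 to 3. The groups overlapped, since wild-type replicate 1 lay above knockout replicate 2. The log2 fold change was 0.14 ± 0.12 (SE, adjusted p = 0.822, edgeR). Dgcr8 (ENSMUSG00000022718, chromosome 16, 18253948 to 18289249), the subunit that recognises the hairpin, had 32.9, 34.1 and 35.6 CPM in knockout and 33.4, 31.9 and 33.1 CPM in wild-type libraries. It was the steadiest of the 10 genes, with a coefficient of variation of 3.76% over the 6 libraries, where the median over the 11586 tested genes with at least 5 CPM was 15.0%. Its log2 fold change was 0.06 ± 0.10 (adjusted p = 0.898, edgeR), with an interval from -0.18 to 0.30.

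Dgcr8 is itself known as a substrate of the complex it belongs to, since its mRNA holds hairpins that Drosha can cut. The annotation places 2 microRNA hairpins in exons of Dgcr8, Mir1306 (chromosome 16, 18284239 to 18284317) and the hairpin of miR-3618 (18284550 to 18284637), and each had 0 counts of its own in all 6 libraries. All their bases (79 and 88) are shared with Dgcr8 exons on the same strand. A read there falls on both genes, so the 0 does not measure the hairpins. One mature strand of each is printed, from RefSeq (GRCm38.p6), with the seed in capitals.

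miR-1306-3p (chr16:18284248-18284268, - strand): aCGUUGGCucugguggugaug

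miR-3618-5p (chr16:18284602-18284623, - strand): uGUGAUUUccaauaauugaggc

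The ratio of Dgcr8 to Drosha within a library does not depend on the scaling between libraries. On the log2 scale of per-length levels (counts per kilobase of exon) it was -1.44, -1.21 and -1.31 in knockout and -1.36, -1.15 and -1.21 in wild-type libraries. The groups overlapped, and the means differed by -0.08 (exact permutation test, two-sided, p = 0.4, and 0.6 adjusted over the 3 ratios tested). With 3 mice against 3 the smallest p this test can give is 0.1. Dgcr8 shares 825 exon bases with Trmt2a on the opposite strand (8831 counts in all). Whether counting used strand is not stated in the sources used here, so its level is uncertain to that extent.

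Export had the largest difference of the 10 genes. Xpo5 (ENSMUSG00000067150, chromosome 17, 46202855 to 46242299), the carrier of hairpin precursors through the nuclear pore, had 61.5, 46.6 and 65.0 CPM in knockout and 46.3, 41.5 and 42.0 CPM in wild-type libraries. Knockout replicates 1 and 3 lay well above every wild-type library, while knockout replicate 2 was level with wild-type replicate 1. The means were 57.7 ± 9.77 and 43.2 ± 2.67 CPM (SD, n = 3 each), a ratio of 1.33 with a 95% interval from 1.05 to 1.70. The log2 fold change of 0.42 ± 0.15 did not pass (unadjusted p = 0.0259, adjusted p = 0.793, edgeR). It ranged from 0.31 to 0.55 when each mouse was left out in turn, and its adjusted p over all 14 alternative fits ranged from 0.111, without knockout replicate 2, to 0.999915, without knockout replicate 3. The unadjusted p of Xpo5 (edgeR) was not below 0.05 without knockout replicate 1 or 3, or without wild-type replicate 2 or 3. The libraries with most Xpo5 were also those with the highest sums of the proliferation markers (10 of 10 tested, 1198, 874 and 1069 CPM in knockout and 916, 837 and 844 CPM in wild-type libraries, no marker under 679 counts). They also had the highest Wnt target sums, 2141 and 2273 CPM in knockout replicates 1 and 3. Their fibroblast sums were the highest too (1479 and 2777 CPM). Their epithelium sums (14789 and 13480 CPM) and leukocyte marker sums (557 and 1017 CPM) were the lowest. Single markers did not all follow these sums. Krt19 was lowest in these libraries (2358 and 1764 CPM), but Krt18 was highest in them (1234 and 970 CPM). Ptprc was lowest in knockout replicate 1 (14.6 CPM), but knockout replicate 3 (23.3 CPM) lay above wild-type replicate 1 (16.9 CPM). The part of the marker sums in the Xpo5 values was not tested.

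Both dicing genes had overlapping groups. Dicer1 (ENSMUSG00000041415, chromosome 12, 104687742 to 104751952), the cytoplasmic RNase III, had 72.0, 79.4 and 81.2 CPM in knockout and 79.9, 64.2 and 67.6 CPM in wild-type libraries. Wild-type replicate 1 lay within the knockout range, and the log2 fold change was 0.14 ± 0.12 (adjusted p = 0.827, edgeR). Tarbp2 (ENSMUSG00000023051, chromosome 15, 102518192 to 102523676), the double-stranded RNA binding partner of Dicer1, had 39.5, 37.5 and 32.1 CPM in knockout and 41.8, 47.3 and 38.7 CPM in wild-type libraries. It was the member with the lowest log2 fold change, -0.23 ± 0.13 (interval from -0.54 to 0.08, adjusted p = 0.802, edgeR), and knockout replicate 1 lay above wild-type replicate 3.

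Knockout and wild-type ranges overlapped for all 4 Argonautes. Ago2 (ENSMUSG00000036698, chromosome 15, 73095844 to 73184840), known as the Argonaute that can slice its target, had 125, 159 and 136 CPM in knockout and 125, 104 and 120 CPM in wild-type libraries. Knockout replicate 2 was the highest library and knockout replicate 1 lay just below wild-type replicate 1 (124.95 against 125.35). The log2 fold change was 0.26 ± 0.14 (adjusted p = 0.793, edgeR). Ago2 shares 219 exon bases with Chrac1 on the opposite strand (4139 counts), so it too is uncertain without the strand setting.

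Ago1, Ago3 and Ago4 lie side by side on chromosome 4 within 201.8 kb (126331704 to 126533472), on the chromosome that carries Mir34a and between 23.5 and 23.6 Mb from it. Ago1 (ENSMUSG00000041530) had 134, 95.8 and 162 CPM in knockout and 161, 104 and 88.2 CPM in wild-type libraries. It varied most of the 10 genes (coefficient of variation 26.4%), and each group held high and low libraries. Its log2 fold change was 0.15 ± 0.28 (adjusted p = 0.907, edgeR), and leaving out knockout replicate 3 turned it to -0.04, leaving out wild-type replicate 3 to -0.02. The 3 libraries with most Ago1 were knockout replicates 3 and 1 and wild-type replicate 1. They were the 3 with the highest Wnt target sums (2273, 2141 and 1830 CPM, against 805 to 1392 CPM in the others). They also had the 3 highest proliferation marker sums (1069, 1198 and 916 CPM) and the 3 lowest epithelium sums (13480, 14789 and 15927 CPM). The last was close to that of wild-type replicate 2 (16006 CPM). Single epithelium markers did not all follow the sum. Krt19 was lowest in these 3 libraries (1764, 2358 and 2366 CPM), but Krt18 was highest in them (970, 1234 and 969 CPM). The part of these sums in the Ago1 values was not tested. Ago3 (ENSMUSG00000028842) had 19.8, 16.2 and 20.3 CPM in knockout and 16.7, 15.6 and 14.9 CPM in wild-type libraries, where only knockout replicate 2 fell within the wild-type range. Its log2 fold change was 0.25 ± 0.15 (adjusted p = 0.804, edgeR). Ago4 (ENSMUSG00000042500), the least abundant, had 5.18, 5.71 and 6.60 CPM in knockout and 7.33, 6.04 and 4.37 CPM in wild-type libraries. The wild-type values spanned all knockout values, and the log2 fold change was -0.02 ± 0.26 (adjusted p = 0.990, edgeR). Its sign was not stable: library size alone gave 0.04, leaving out knockout replicate 1 gave 0.05 and leaving out wild-type replicate 1 gave 0.16.

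Tnrc6a (ENSMUSG00000052707, chromosome 7, 123123885 to 123195288), the GW182-type scaffold that binds Argonaute and the deadenylases, had 93.8, 119 and 100.4 CPM in knockout and 99.8, 121 and 105 CPM in wild-type libraries. The second replicate was the highest library of each group, and the groups overlapped. The log2 fold change was -0.06 ± 0.14 (adjusted p = 0.938, edgeR). Library size alone gave 0.0058, and the value was 0.01 when knockout replicate 1 was left out and 0.03 when wild-type replicate 2 was.

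**Figure D2:**
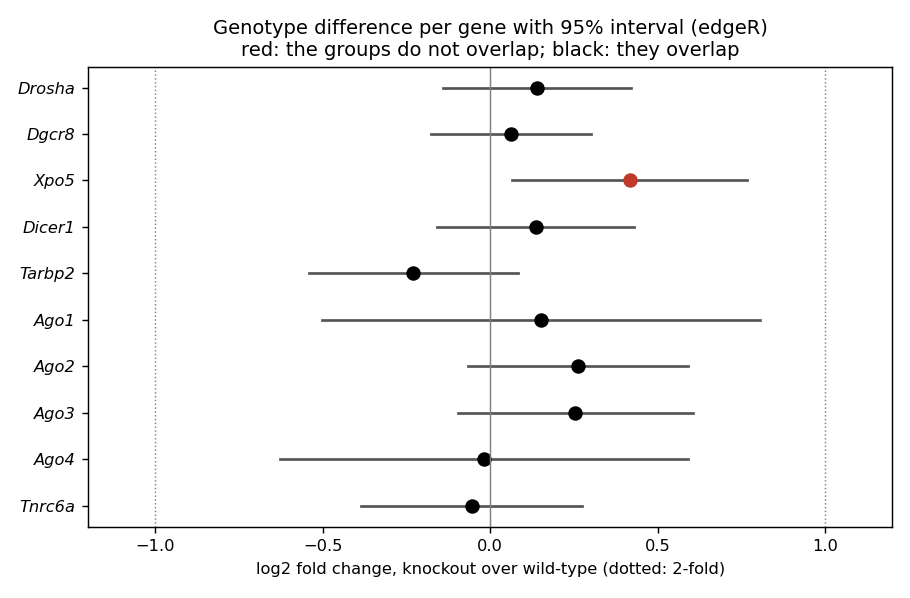
Log2 fold change of each gene, knockout over wild-type (points), with its unadjusted 95% interval from edgeR (lines); dotted lines mark a 2-fold difference, and the red point is the gene whose groups do not overlap. The interval of Xpo5 (0.07 to 0.77) leaves out 0, the other 9 include it, and those of Ago1 and Ago4 are the widest.

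Levels can be compared between genes per length of exon, here as counts per kilobase of merged GENCODE M21 exons, scaled to library size as for CPM (RPKM), averaged over the 6 libraries. Ago1 was highest with 15.3 ± 4.04 RPKM (SD, n = 6), followed by Drosha (10.6 ± 0.97), Ago2 (9.14 ± 1.29), Tarbp2 (8.68 ± 1.10), Tnrc6a (8.38 ± 0.88), Xpo5 (7.36 ± 1.48), Dicer1 (4.42 ± 0.43), Dgcr8 (4.35 ± 0.16), Ago3 (1.04 ± 0.14) and Ago4 (0.845 ± 0.150). Only 2 steps in this order separated neighbours whose ranges did not meet, from Xpo5 to Dicer1 and from Dgcr8 to Ago3, the latter a ratio of 4.18. Ago1 exceeded Drosha in 6 of 6 libraries although their ranges overlapped, and the other neighbours exchanged places in at least 1 library. The middle of the order depends on the length used. With the longest transcript of each gene, Tarbp2 ranked second (14.4 RPKM) and Ago2 sixth (9.29), Xpo5 and Dicer1 no longer stood apart, and Ago1 (17.2) stayed first, with Ago3 (1.11) and Ago4 (0.898) last. GENCODE M21, with 6859 exon bases for Xpo5, extends the gene by 1299 bases past the end given in the deposited tables. This lowers the per-length level of Xpo5 and leaves its place in the order uncertain.

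Within the family, Ago1 made up 47.4% to 64.3% of the Argonaute per-length level, Ago2 29.0% to 45.4%, Ago3 3.27% to 4.37% and Ago4 2.72% to 3.94%. The Ago2 share was 32.5%, 45.4% and 30.5% in knockout and 29.0%, 33.6% and 40.9% in wild-type libraries. Knockout replicate 2 and wild-type replicate 3 had the high shares, 1 in each group. The difference of means was 1.60 percentage points (exact permutation test, two-sided, p = 0.7, adjusted p = 0.7), and it became -3.04 when knockout replicate 2 was left out and -1.15 when wild-type replicate 1 was. Tnrc6a made up 52.0%, 57.0% and 52.3% of the Tnrc6 per-length level in knockout and 56.0%, 63.8% and 57.5% in wild-type libraries. The groups overlapped only through knockout replicate 2. The difference of -5.28 percentage points had an exact two-sided permutation p of 0.2 (adjusted p = 0.6) and kept its sign when any mouse was left out (-6.90 to -2.93).

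**Figure D3:**
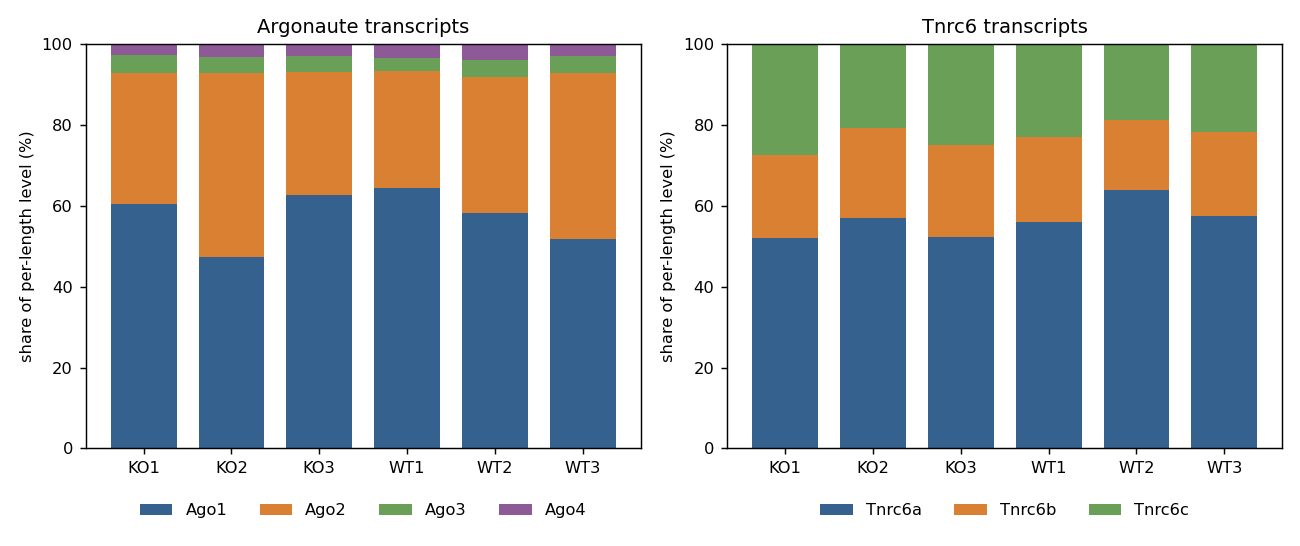
Share of each gene in the summed per-length level of its family in every library (bars sum to 100%; KO knockout, WT wild-type, numbers are replicates). Ago1 and Ago2 fill over 90% of each Argonaute bar, and the Ago2 part is largest in knockout replicate 2 (45.4%); Tnrc6a fills between 52.0% and 63.8% of each Tnrc6 bar.

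The likeness of profiles was measured as the root mean square difference between log2 CPM over the 6 libraries, each gene centred on its own mean. Xpo5 and Ago3 were each other's nearest among the 10 (0.09), as were Dgcr8 and Dicer1 (0.09). Drosha and Ago2 also lay nearest to Dicer1 (0.09 and 0.11), as did Ago4 (0.19), Tarbp2 lay nearest to Tnrc6a (0.17), Tnrc6a to Dgcr8 (0.16) and Ago1 to Ago4 (0.24). The measure does not scale genes to their own spread, so a gene that varies little can lie nearest without sharing a pattern. In wild-type replicate 2, for example, centred Tnrc6a was 0.19 and centred Dgcr8, its nearest, was -0.07. The mean profile of the 10 genes was closest to those of Tlk2 (0.02), Setd1b (0.02) and Ubap2l (0.03) among 10028 other genes with at least 10 CPM. The mean centred log2 CPM of the 10 genes was highest in knockout replicate 3 (0.13, 8 of 10 genes above their own mean) and lowest in wild-type replicate 3 (-0.16, 0 of 10 above).

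Matches to the miR-34 seed were sought in the longest annotated 3′ UTR of each gene (GENCODE M21), as CACTGCC, the complement of bases 2 to 8, or ACTGCCA, the complement of bases 2 to 7 followed by A, on the transcript strand. Overlapping matches were counted as 1 site. Of the 10 genes, 5 held at least 1 match: Ago2 held 3, Ago4 held 2, and Xpo5, Dicer1 and Ago3 held 1 each. Drosha, Dgcr8, Tarbp2, Ago1 and Tnrc6a held none. Among the 14685 tested genes with an annotated 3′ UTR, 22.8% held a match. The machinery genes have long 3′ UTRs (median 3013.5 bases, from 169 in Drosha to 12742 in Ago3, against a median of 1141 over the tested genes). Of the 5 with at least 3000 bases, 4 held a match, against 52.0% of the 2246 tested genes of that length. A site of each of the 5 genes is printed in mm10 with the match in capitals, for Ago2 its longest match and for Ago4 the match nearer the stop codon.

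Xpo5 site (chr17:46242342-46242369, + strand): gccctcctcgCACTGCCgcctcactttc

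Dicer1 site (chr12:104690558-104690585, - strand): attgtggcagACTGCCAggaccaacccg

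Ago2 site (chr15:73103546-73103573, - strand): ggccacagggCACTGCCAgtgaggagac

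Ago3 site (chr4:126344432-126344459, - strand): ctagtttactCACTGCCcttatacctta

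Ago4 site (chr4:126492517-126492544, - strand): gggacagataCACTGCCgtggtaaaaag

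The Xpo5 site starts past the end of the gene given in the deposited tables and rests on the longer GENCODE model. The 5 genes with a match had a median log2 fold change of 0.25, and the 5 without one of 0.06. Over all tested genes with an annotated 3′ UTR the medians were 0.06 for the 3348 with a match and 0.01 for the 11337 without. Neither comparison was matched for 3′ UTR length, and longer 3′ UTRs held a match more often. The 3′ UTRs ran from 1327 to 12742 bases in the members with a match and from 169 to 4491 in those without. These medians are a description: a match is a run of letters and not a shown site, and none of the 5 genes passed the genotype test.

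Genes that work beside the 10 were read from lists by role. Of 79 listed, 75 passed the filter, 49 of them higher and 26 lower in mean in knockout tumors, where 51.1% of all genes were higher. With edgeR, 0 passed at an adjusted p below 0.05 and 1 fell below 0.05 unadjusted, against 5.85% of all genes. DESeq2 and limma-voom called 0. In 4 of the 75 knockout and wild-type ranges lay apart, against 11.2% of all genes. Their median log2 fold change was 0.06, and it was -0.0049 without knockout replicate 1. Without knockout replicate 2, 10 of the 75 (13.3%) had an unadjusted p below 0.05 and 0 passed, but in that fit 17.9% of all genes had such a p.

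The gene with the unadjusted p was Tnrc6c, a paralog of Tnrc6a, with 49.9, 44.0 and 48.3 CPM in knockout and 41.7, 36.0 and 40.0 CPM in wild-type libraries. Every knockout library lay above every wild-type library (log2 fold change 0.27 ± 0.11, adjusted p = 0.793, edgeR). Tnrc6b, the other paralog, had 69.3, 86.2 and 81.2 CPM against 69.6, 62.0 and 70.3 CPM, with knockout replicate 1 inside the wild-type range (log2 fold change 0.23 ± 0.12, adjusted p = 0.801, edgeR). For Tnrc6a, the most abundant Tnrc6 gene per length, the same value was -0.06.

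Of 11 nuclear cofactors, 7 were higher and 4 lower in mean (median log2 fold change 0.02), and the gene with the lowest p was Ncbp1, a subunit of the nuclear cap-binding complex (80.1 ± 13.6 against 69.2 ± 6.75 CPM). The 4 export cofactors were all higher in mean (0.03 to 0.17), led by Xpo1, the general export receptor (149 ± 7.56 against 133 ± 12.5 CPM). Among 11 Dicer and loading cofactors, 6 were higher and 5 lower. Hsp90aa1, a chaperone that helps load Argonaute, had 291, 209 and 238 CPM in knockout and 209, 161 and 212 CPM in wild-type libraries (log2 fold change 0.34 ± 0.18, adjusted p = 0.793, edgeR). Its groups overlapped through knockout replicate 2.

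The enzymes that act after Argonaute binding had medians close to that of all genes. Of 19 deadenylation genes 12 were higher (median 0.03), with the lowest p for Cnot1, the scaffold of the CCR4-NOT complex, at 236 ± 29.3 against 203 ± 13.96 CPM. Of 18 decapping and decay genes 13 were higher (median 0.07), with the lowest p for Limd1, a LIM protein that links Argonaute to the cap-bound complex (105 ± 3.39 against 90.8 ± 5.98 CPM, groups not overlapping, adjusted p = 0.793, edgeR). The others without overlap were Cnot9 (70.2 ± 2.55 against 64.0 ± 1.26 CPM) and, in the opposite direction, Eif4e2, a cap-binding repressor of translation (92.7 ± 4.84 against 107 ± 8.03 CPM). They were named after their values were seen.

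Of 11 genes that tail, trim or block microRNAs, 8 were tested. Tut4, a uridylyltransferase that tails let-7 precursors, had 24.8, 12.2 and 29.4 CPM in knockout and 16.5, 12.1 and 15.0 CPM in wild-type libraries. Knockout replicates 1 and 3 were high and knockout replicate 2 lay in the wild-type range (log2 fold change 0.61 ± 0.32, adjusted p = 0.793, edgeR). The other 3 did not pass the filter: Lin28a, Lin28b and Trim71, genes of embryonic cells around let-7, had 25, 6 and 12 counts over all 6 libraries. In the germline Piwi branch of the Argonautes Piwil1 had 7 counts, while Piwil2 had 7.80 ± 2.88 against 10.4 ± 6.13 CPM.

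Host transcripts, from which microRNAs are cut, were read as a last group, and 7 of 13 were tested. In mean 1 was higher and 6 were lower in knockout tumors (median log2 fold change -0.35), where 51.1% of all genes were higher. With edgeR 0 were called and 0 had an unadjusted p below 0.05, against 0.0927% and 5.85% of all genes. DESeq2 called 0, against 0.638% of all genes. The median is the value of Carmn, at 0.547 against 0.697 CPM. Mir142hg, Mir155hg and Mir99ahg were weakly expressed too, with no group mean above 1.49 CPM. The better expressed Mir17hg and Dleu2 had log2 fold changes of 0.04 and -0.06. Mir22hg, the host of miR-22, had 26.3, 47.6 and 30.8 CPM in knockout and 40.7, 61.7 and 49.4 CPM in wild-type libraries (log2 fold change -0.54 ± 0.25, adjusted p = 0.793, edgeR). Knockout replicate 2 lay among the wild-type libraries. Mir142hg, the host of miR-142, had the lowest log2 fold change (-0.77) at 0.398 ± 0.092 against 0.678 ± 0.409 CPM, and was named after its values were seen.

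**Figure D4:**
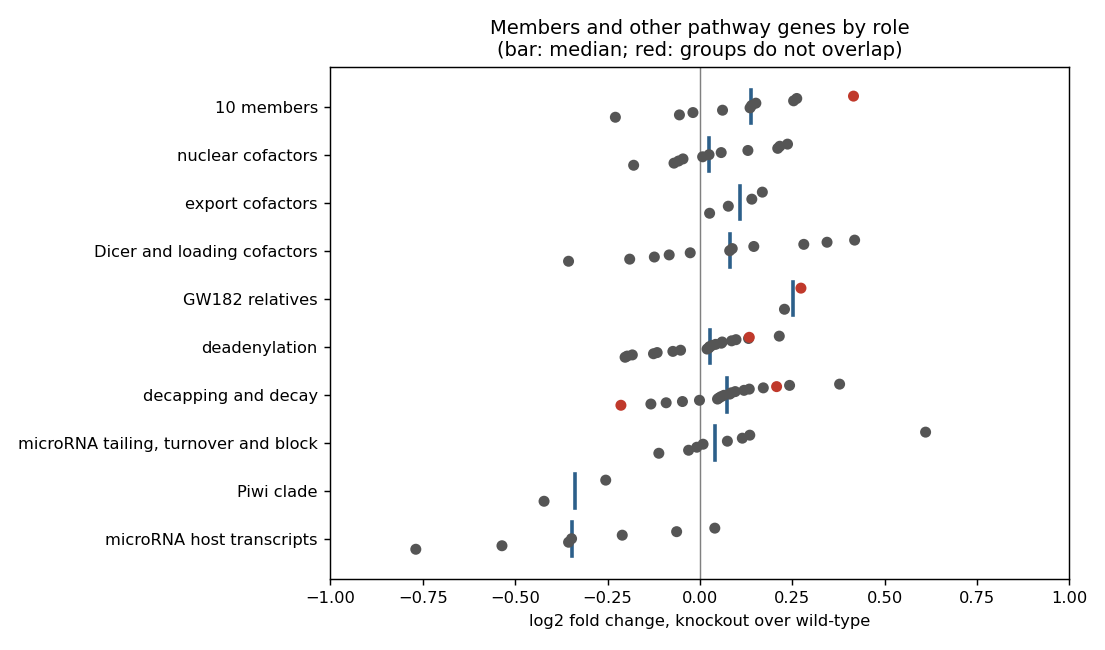
Log2 fold change, knockout over wild-type, of the 10 genes and of the other tested genes of the pathway by role (points), with the median of each role (blue bars). Red points are genes whose groups do not overlap, and most points lie within 0.25 of 0, with Tut4 (0.61) and the weakly expressed Mir142hg (-0.77) farthest out.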

How the data were processed

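Counts were deposited by the authors as whole-number counts per Ensembl gene, 1 table per library with gene coordinates, which are given here with the first base as 1. The tools TopHat2 2.1.0 and HTSeq 0.6.1 and the build mm10 come from the submitters' processing notes. For strand use, multi-mapped reads and annotation release, nothing is given in the sources used here. Groups and replicate numbers came from the sample titles. Symbols were found for 45143 of 46078 identifiers in GENCODE M21, whose coordinates were identical for 5 of the 10 members.

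After filterByExpr 17254 genes remained, scaled by TMM (factors 0.914 to 1.09). Genotypes were compared over all of them with edgeR 4.0.16 (R 4.3.3) by the robust quasi-likelihood F-test, with Benjamini-Hochberg adjustment at 0.05. SE is the log2 fold change over the square root of F, and 95% intervals use the total degrees of freedom. Alternatives were DESeq2 1.42.0, limma-voom (limma 3.58.1), other scalings and filters, non-robust fitting, a replicate block and each mouse left out. Ratios within libraries were tested with exact permutation tests (scipy 1.17.1).

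Near-identical copies were sought with BLAST 2.17.0 (at least 95% identity over 100 bases, GENCODE M21 transcripts). Besides the overlapping genes, Dgcr8 matched Gm49776 and Gm43555, Tarbp2 matched Gm18584 and Gm18561, and Tnrc6a matched Gm45846, so reads of those stretches are uncertain; Gm43555 had 0 counts. Named beside the members were, in each role list, the gene with the smallest p, Tnrc6b, Tnrc6c and any gene that passed. Cnot9, Eif4e2, the host transcripts besides Mir22hg, single leukocyte markers and listed genes below the filter were added after their values were seen. The members and lists were chosen with earlier results of these data known. p-values measure the spread between mice.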

Additional observations from a re-analysis of the deposited data

How the results depend on the processing

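No member and no other pathway gene passed in any of the 14 alternative fits. Over all genes 16 passed, 7 higher and 9 lower; DESeq2 called 110 (46 higher, 64 lower), and leaving out each mouse gave 9 to 41 (3 to 10 higher, 5 to 31 lower). Drosha, Dgcr8, Xpo5, Dicer1, Tarbp2, Ago2 and Ago3 kept their direction in all 14. Ago4 turned to 0.044 with library size alone, to 0.026 with limma-voom and to 0.0049 with the replicate block, and Tnrc6a to 0.0058 with library size alone. Without each mouse in turn Ago1 ranged from -0.042 to 0.43, Ago4 from -0.20 to 0.16, Tnrc6a from -0.16 to 0.031 and the difference in Ago2 share from -3.04 to 4.80 percentage points. With library size alone the median of all genes rose from 0.007 to 0.077. That of the 10 members rose alongside from 0.138 to 0.205, and that of the other pathway genes from 0.058 to 0.125. Without each mouse in turn the median was 0.058 to 0.22 for the members and -0.0049 to 0.10 for the other pathway genes. The cause of these shifts was not tested. With the replicate number as a block 14 genes passed over all genes. Deviations of same-numbered libraries from their group means correlated at 0.22, 0.27 and 0.08 over genes, and knockout replicate 3 correlated better with wild-type replicate 1 (0.18), so the numbers were not taken as pairs. Counting error alone would give a coefficient of variation of 3.02% for Dgcr8, most of the 3.76% observed, and 7.31% for Ago4 against 17.8% observed. For the other 8 members it was 1.55% to 4.23% against 9.13% to 26.4%.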
